A study of Mus musculus with 6 samples.

Results

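De novo lipogenesis is the making of fatty acids from acetyl-CoA in the cytosol. The genes described here are 10 that carry out, regulate or use this synthesis: Acly, Acaca, Acacb, Fasn, Elovl6, Scd1, Scd2, Dgat2, Srebf1 and Thrsp. They were chosen by name as fatty acid synthesis genes, and all 10 are among the 22032 gene symbols of the count table. Gene expression was measured by sequencing poly(A) RNA from the temporomandibular joint, the jaw joint, of mice aged 10 weeks. The mutant mice carry an Igf2bp2 knockout (KO, 3 libraries) and the others are wild-type (WT, 3 libraries) littermates. IGF2BP2 binds mRNA and recognises the m6A modification. The labels do not say which part of Igf2bp2 is deleted, whether other cells than those of the joint lose it, or whether animals were pooled.

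ATP citrate lyase, the product of Acly, splits citrate that has left the mitochondrion into acetyl-CoA and oxaloacetate. Acetyl-CoA carboxylase turns acetyl-CoA into malonyl-CoA, and the fatty acid synthase FASN uses malonyl-CoA to build palmitate. ELOVL6 lengthens palmitate to stearate, the stearoyl-CoA desaturases SCD1 and SCD2 add a double bond, and DGAT2 joins fatty acids to diacylglycerol to give triglyceride. Of the carboxylases, ACACA is cytosolic and feeds synthesis, whereas ACACB sits at the mitochondrial surface, where its malonyl-CoA restrains the entry of fatty acids for oxidation, and is the main form in skeletal muscle. SREBF1 is the transcription factor best known for inducing these genes, and THRSP is a small nuclear protein of lipogenic tissues. The pathway is known for high activity in fat, liver, sebaceous glands and myelinating Schwann cells.

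Total counts ranged from 31813171 to 35094127 in KO libraries and from 28551236 to 33935022 in WT libraries. Mitochondrially encoded genes took most of them, and the counts of nuclear genes were 4604575 to 4899680 in KO libraries, against 2625472 to 3205190 in WT libraries. Igf2bp2 had 13, 14 and 10 counts in KO 1 to 3, against 38, 20 and 24 in WT 1 to 3, a log2 fold change of -1.80 (edgeR FDR 0.00589). Counting noise was computed taking 2 counts as 1 read pair, as the counts appear to fall. For the median gene, the variance between KO 1 and KO 3 was 0.941 of that noise, and between WT 2 and WT 3 it was 0.964. The mean ratios of these pairs were 1.18 and 1.08. Each such pair was summed and counted as 1 sample, so n = 2 samples per group (KO 1+3 and KO 2, WT 1 and WT 2+3). Separate animals per library are not stated in the labels, and the p-values therefore reflect the scatter of these samples alone, which may be technical. Of genes that mark the joint, the lubricin gene Prg4 was at 42.0 to 49.2 CPM in KO libraries and 10.4 to 11.9 in WT libraries. The cartilage genes Col2a1 and Acan were low throughout, with Col2a1 at 0.808 to 1.56 CPM in KO libraries and 1.09 to 1.67 in WT libraries. CPM here is the count scaled to library size, adjusted by trimmed mean of M-values (TMM).

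The lipogenic genes did not move as 1 block. In KO, Acacb and Thrsp were higher, Fasn, Elovl6, Scd1 and Scd2 were lower, and Acly, Acaca, Srebf1 and Dgat2 did not pass the test. All 10 passed the filter on low counts. A gene was called at a false discovery rate (FDR) under 0.05 in edgeR's quasi-likelihood test, adjusted over all 14632 genes tested. By that rule 2 of the 10 were higher in KO, where 9.15% of all genes tested were, and 4 of the 10 were lower, where 8.48% were. In 9 of the 10 genes, all but Dgat2, the ranges of the 3 libraries per group were disjoint, against 38.4% of all genes tested. The median log2 fold change of the 10 was -0.29, and that of all genes tested -0.01. The libraries are of bulk tissue, in which fewer cells of a type cannot be told apart from less RNA per cell.

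**Figure D1:**
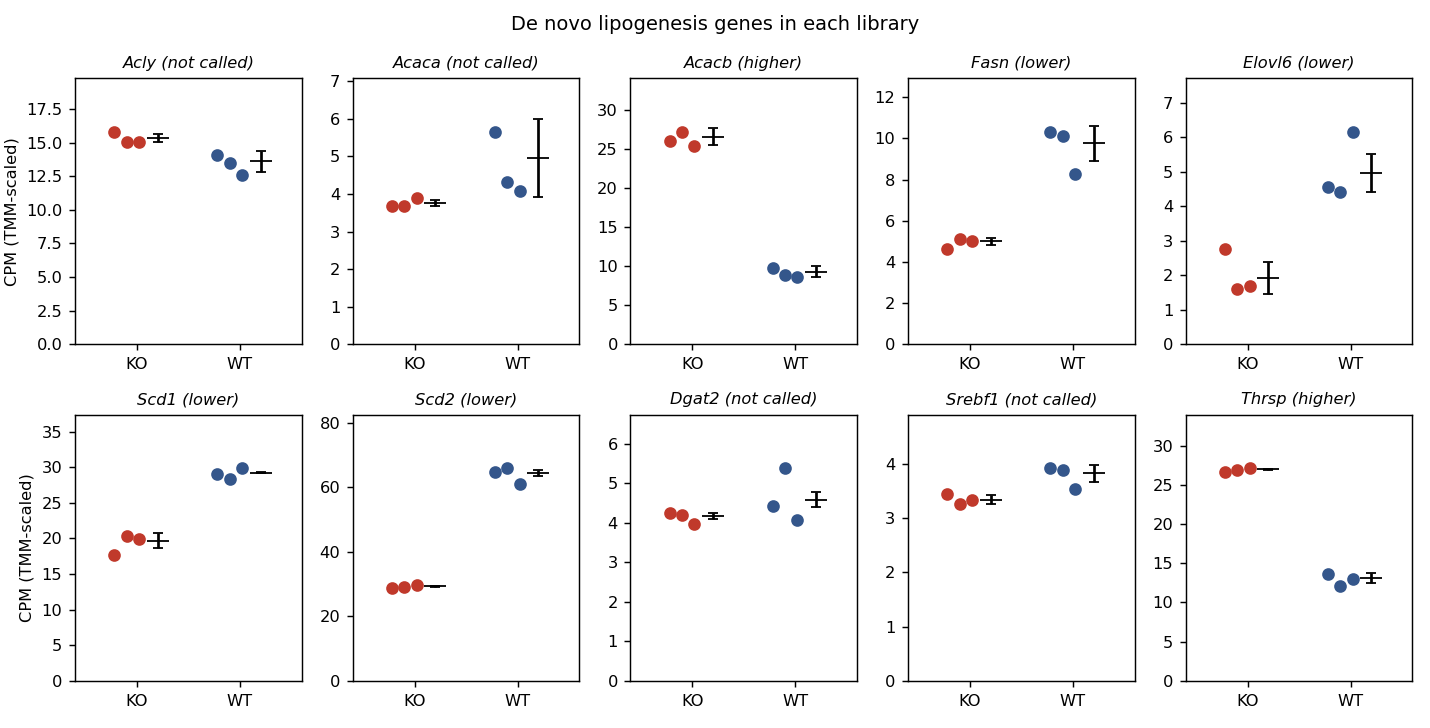
CPM (TMM-scaled, vertical axes from 0) of each lipogenic gene in the 3 KO libraries (red, left) and the 3 WT libraries (blue, right), with the mean and SD of the 2 samples of a group in black. Acacb lies at 25.4 to 27.2 in KO and 8.66 to 9.75 in WT, and Scd2 at 29.0 to 29.7 in KO and 61.2 to 66.0 in WT.

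Of the genes for the first steps, from citrate to malonyl-CoA, only Acacb was called, with the largest increase among the 10 genes. Acly had 15.8, 15.1 and 15.1 CPM in KO 1 to 3, against 14.1, 13.5 and 12.6 CPM in WT 1 to 3. Every KO library was above every WT library by a small margin, but the difference of 0.18 on the log2 scale (95% interval -0.07 to 0.42) did not pass (edgeR FDR 0.323). Acaca, the cytosolic carboxylase, had 3.67, 3.67 and 3.89 CPM in KO 1 to 3, against 5.66, 4.33 and 4.08 CPM in WT 1 to 3. The KO libraries again lay on 1 side, below, with WT 1 well above the other WT libraries. The log2 difference of Acaca was -0.38 (SE 0.18), with an unadjusted p of 0.0497 and an edgeR FDR of 0.166.

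Acacb, the carboxylase at the mitochondrial surface, had 26.0, 27.2 and 25.4 CPM in KO 1 to 3, against 9.75, 8.83 and 8.66 CPM in WT 1 to 3. The groups were far apart and each was tight. It averaged 26.6 ± 1.07 CPM in KO samples and 9.28 ± 0.711 CPM in WT samples (SD, n = 2 samples each), which is 2.87-fold higher (log2 fold change 1.52, SE 0.12, edgeR FDR 1.40e-06). Since the carboxylases share a library, their ratio needs no scaling between libraries. Acacb had 7.08, 7.41 and 6.53 counts for each Acaca count in KO 1 to 3, against 1.72, 2.04 and 2.12 in WT 1 to 3. The ratio was thus higher in every KO library than in any WT library, by 3.58-fold on the mean of logs. With 2 samples per group no exact permutation test can reach 0.05, so the ratio is given as a description. The longest transcripts of the 2 carboxylase genes share none of their 50-base stretches, so reads of that length within them would separate the genes. In the GENCODE M21 annotation the protein-coding gene Gm11437 overlaps Acaca, and the pseudogene Gm13784 overlaps Acacb, each on the opposite strand. The strand setting is not stated, so it is not known whether their reads were counted to the carboxylases.

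Fasn, the synthase itself, was lower. It had 4.65, 5.10 and 5.02 CPM in KO 1 to 3, against 10.3, 10.1 and 8.27 CPM in WT 1 to 3. The highest KO library lay below the lowest WT library. Fasn averaged 4.99 ± 0.179 CPM in KO samples and 9.77 ± 0.844 CPM in WT samples (SD, n = 2 samples each), which is 1.95-fold lower in KO (log2 fold change -0.97, SE 0.14, edgeR FDR 0.000248).

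Elovl6, which lengthens the palmitate that FASN makes, had the largest decrease of the 10. It had 2.77, 1.59 and 1.69 CPM in KO 1 to 3, against 4.57, 4.41 and 6.17 CPM in WT 1 to 3. The groups did not overlap, though Elovl6 was the most scattered of the called genes, and KO 1 stood above KO 3, with which it was summed (108 and 67 counts). The log2 fold change was -1.35 (SE 0.20, edgeR FDR 0.000305), with a range of -1.60 without KO 1 to -1.16 without KO 2. An antisense gene lies over Elovl6 in the GENCODE M21 annotation, and without a stated strand setting its reads cannot be told apart from those of Elovl6.

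The desaturases were the most abundant of the lower genes. Scd2, the form known from nerve and brain, had 29.0, 29.0 and 29.7 CPM in KO 1 to 3, against 64.8, 66.0 and 61.2 CPM in WT 1 to 3. All KO libraries were close together and well under the WT libraries. The log2 fold change of Scd2 was -1.14 (SE 0.11, edgeR FDR 1.26e-05), or 2.20-fold lower in KO. Scd1, the main form of liver, fat and sebaceous gland, had 17.7, 20.3 and 20.0 CPM in KO 1 to 3, against 29.1, 28.3 and 29.8 CPM in WT 1 to 3. Its groups did not overlap either, but it had the smallest change of the called genes, -0.57 (SE 0.11, edgeR FDR 0.00259). Without KO 2 the difference was -0.62, from a fit that leaves KO with 1 sample (KO 1+3).

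Within each library, Scd1 had 0.613, 0.701 and 0.673 counts for each Scd2 count in KO 1 to 3, against 0.449, 0.429 and 0.488 in WT 1 to 3. The ratio was 1.45-fold higher in KO on the mean of logs, with no overlap, so Scd2 was the lower of the pair by more. The Scd genes lie next to each other on chromosome 19 in the order Scd3, Scd2, Scd4, Scd1 among protein-coding genes. Of the 50-base stretches in the longest transcript, 4.66% of those of Scd1 and 3.79% of those of Scd2 also occur in another Scd gene. How the counting assigned reads from such stretches is not stated by the labels.

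**Figure D2:**
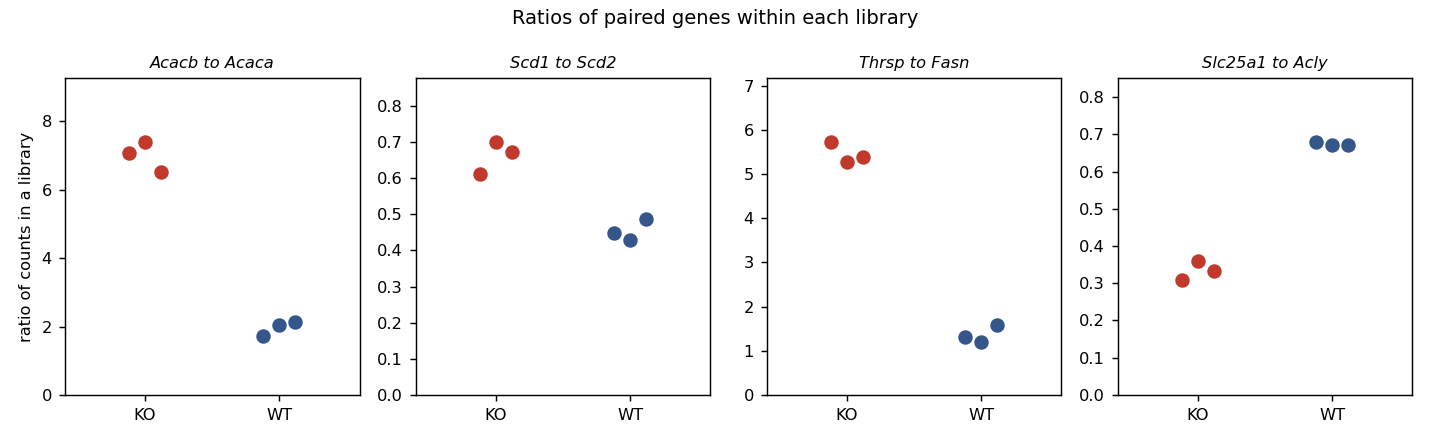
Ratio of the counts of 2 genes within each library (vertical axes from 0), with KO libraries on the left in red and WT libraries on the right in blue. Acacb to Acaca lies at 6.53 to 7.41 in KO and 1.72 to 2.12 in WT, and no ratio overlaps between the groups. Thrsp to Fasn and Slc25a1 to Acly were chosen after their values were seen. Outside Scd1 to Scd2, the genes of each ratio already lay apart in opposite directions, so a gap in their ratio follows.

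Triglyceride synthesis and the regulators split. Dgat2 had 4.24, 4.20 and 3.96 CPM in KO 1 to 3, against 4.43, 5.38 and 4.08 CPM in WT 1 to 3. These values overlapped, and the difference of -0.14 (95% interval -0.48 to 0.20) did not pass (edgeR FDR 0.608). Srebf1 had 3.44, 3.27 and 3.33 CPM in KO 1 to 3, against 3.92, 3.89 and 3.53 CPM in WT 1 to 3. The KO libraries were all slightly below, with a difference of -0.19 (95% interval -0.55 to 0.17, edgeR FDR 0.498). The interval reflects the scatter of these samples alone, and the part of Srebf1 in the decrease of Fasn was not tested. A gene count does not tell the SREBF1 isoforms apart and does not measure the processing of the protein, through which the factor is known to be controlled. Rai1 overlaps Srebf1 on the opposite strand.

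Thrsp, a marker of lipogenic state in liver and fat, had 26.7, 26.8 and 27.1 CPM in KO 1 to 3, against 13.6, 12.2 and 13.0 CPM in WT 1 to 3. The groups were again far apart. It averaged 27.0 ± 0.0633 CPM in KO samples and 13.1 ± 0.674 CPM in WT samples (SD, n = 2 samples each), which is 2.06-fold higher (log2 fold change 1.04, SE 0.11, edgeR FDR 2.30e-05). Thrsp thus went the other way from Fasn. In a comparison chosen after the values were seen, Thrsp had 5.73, 5.27 and 5.40 counts for each Fasn count in KO 1 to 3, against 1.31, 1.20 and 1.57 in WT 1 to 3.

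**Figure D3:**
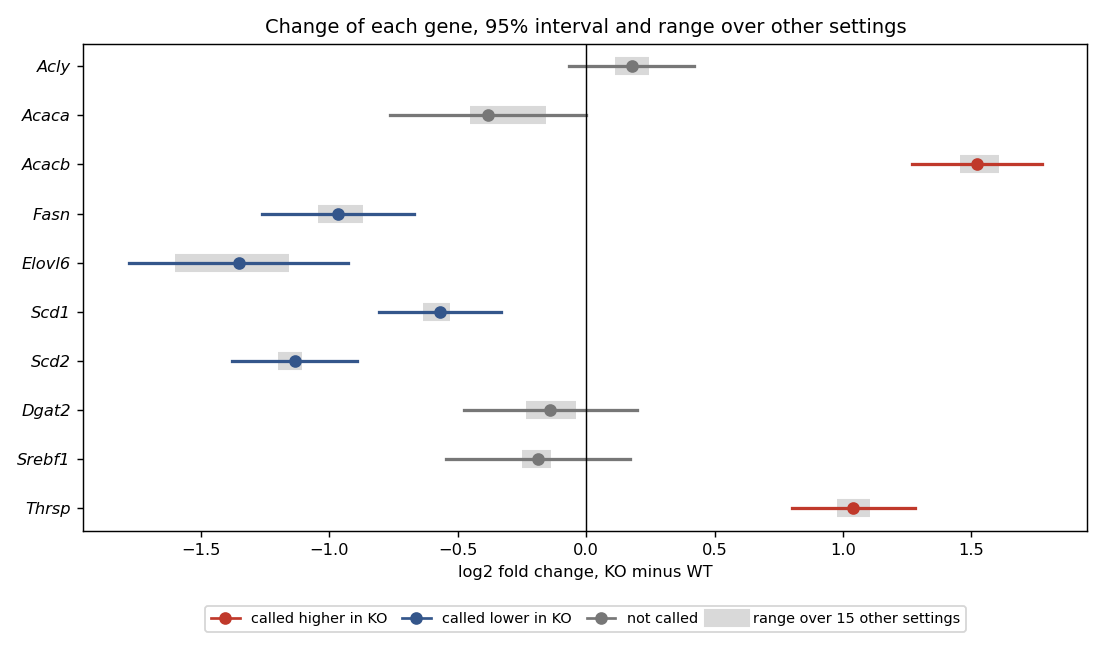
Log2 fold change (KO minus WT, horizontal axis) of each lipogenic gene in pathway order, with its 95% interval as a line and the range over 15 other settings as a grey bar. Acacb (1.52) and Thrsp (1.04) lie right of 0, and Fasn (-0.97), Elovl6 (-1.35), Scd1 (-0.57) and Scd2 (-1.14) lie left of it with intervals that do not reach 0.

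Summed over the 10 genes, the level was 133.9 to 136.3 CPM in KO libraries and 151 to 160.2 CPM in WT libraries. The make-up of that total differed too. Scd2 alone gave 21.3% to 22.0% of the 10 genes' counts in KO libraries and 40.4% to 42.1% in WT libraries. Acacb gave 18.8% to 20.0% in KO libraries and 5.63% to 6.09% in WT libraries, and Thrsp 19.7% to 20.1% in KO libraries and 7.75% to 8.59% in WT libraries. The share of Srebf1 was nearly the same in all, at 2.40% to 2.57% in KO libraries and 2.33% to 2.48% in WT libraries. These shares are of counts, not of molecules, because a longer transcript gives more reads.

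**Figure D4:**
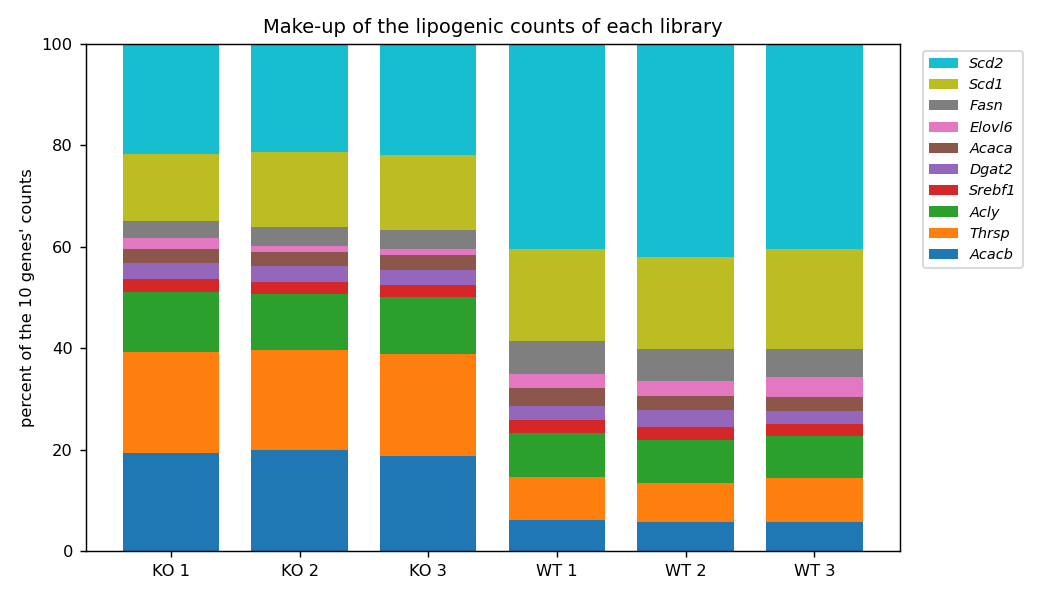
Percent of the 10 genes' summed counts (vertical axis) that each gene took in KO 1 to 3 and WT 1 to 3. Scd2, at the top, takes 21.3% to 22.0% in KO and 40.4% to 42.1% in WT, while Acacb and Thrsp, at the bottom, each take more in every KO library than in any WT library.

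Per kilobase of the longest annotated transcript, the order of levels also differed at its top. In KO, Thrsp led with 21.1 CPM per kb, followed by Scd2 (5.37), Scd1 (4.08), Acly (3.47) and Acacb (3.02). In WT, Scd2 led with 11.8 CPM per kb, followed by Thrsp (10.3), Scd1 (6.05), Acly (3.07) and Dgat2 (2.02). None of these neighbours overlapped between libraries of 1 group. Lower in the order they did. In WT, Acacb (0.985 to 1.11 CPM per kb) overlapped Fasn (0.823 to 1.03), which overlapped Srebf1 (0.822 to 0.912) and Elovl6 (0.742 to 1.04). In KO, Elovl6 (0.267 to 0.466 CPM per kb) overlapped Fasn (0.462 to 0.507) and Acaca (0.386 to 0.409). The transcript used in the joint may be shorter than the longest one annotated, which would raise its level per kilobase.

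Promoter sequences, from RefSeq on build GRCm38.p6, are shown for 4 called genes that went opposite ways, so that the letters near their start sites can be set side by side. The table used holds 9 windows for 7 of the 10 genes, each of 250 bases before and 50 after a transcription start. Scd1, Scd2 and Dgat2 are not among them. Acacb and Thrsp were higher in KO, and Fasn and Elovl6 lower. The windows lie at chr5:114165268-114165567 (+ strand), chr7:97417501-97417800 (- strand), chr11:120824498-120824797 (- strand) and chr3:129532136-129532435 (+ strand), and capitals mark the letters CCAAT and TATAAA on either strand, so that CCAAT on the other strand reads ATTGG.
Acacb: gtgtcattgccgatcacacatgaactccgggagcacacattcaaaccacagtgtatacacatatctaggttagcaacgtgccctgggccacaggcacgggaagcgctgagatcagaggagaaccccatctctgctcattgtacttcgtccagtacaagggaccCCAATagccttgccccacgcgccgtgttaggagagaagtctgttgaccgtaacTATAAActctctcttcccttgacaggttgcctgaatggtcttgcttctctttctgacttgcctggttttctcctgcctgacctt
Thrsp: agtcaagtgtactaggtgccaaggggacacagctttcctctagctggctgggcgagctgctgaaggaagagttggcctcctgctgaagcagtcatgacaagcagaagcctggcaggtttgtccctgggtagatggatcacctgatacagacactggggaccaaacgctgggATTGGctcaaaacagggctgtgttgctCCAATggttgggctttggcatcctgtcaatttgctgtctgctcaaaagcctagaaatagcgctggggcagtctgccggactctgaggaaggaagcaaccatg
Fasn: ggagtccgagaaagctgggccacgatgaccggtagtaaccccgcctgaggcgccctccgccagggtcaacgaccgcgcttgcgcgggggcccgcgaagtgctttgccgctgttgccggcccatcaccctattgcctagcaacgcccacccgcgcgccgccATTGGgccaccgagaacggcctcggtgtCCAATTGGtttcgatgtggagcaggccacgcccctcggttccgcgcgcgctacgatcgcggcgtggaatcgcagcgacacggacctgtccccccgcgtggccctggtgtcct
Elovl6: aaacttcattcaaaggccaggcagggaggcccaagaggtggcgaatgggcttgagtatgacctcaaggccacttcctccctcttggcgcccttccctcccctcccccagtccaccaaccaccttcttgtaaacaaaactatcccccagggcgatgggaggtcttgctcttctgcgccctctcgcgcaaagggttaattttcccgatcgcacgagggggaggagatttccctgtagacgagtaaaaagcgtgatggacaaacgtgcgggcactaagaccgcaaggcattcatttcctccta

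The CCAAT box, the letters bound by the factor NF-Y, stood in 6 of the 9 windows, which belong to 5 of the 7 genes (Acacb, Acly, Fasn, Srebf1 and Thrsp), and in 37.4% of all 32851 promoter windows. Of the called genes with a window, Acacb and Thrsp, higher in KO, and Fasn, lower in KO, held it, and Elovl6, also lower, did not. In Fasn, copies begin 90, 62 and 59 bases before the start, of which the last 2 overlap in the palindrome CCAATTGG. In Thrsp they begin 79 and 52 bases before it, and in Acacb 1 copy begins 87 bases before it, with TATAAA 34 bases before it. The Elovl6 window did not hold TATAAA either. Of all windows 13.6% held TATAAA. The E-box CACGTG and the sterol element TCACNCCAC were searched on both strands and had no match in the 9 windows of lipogenic genes, against 7.15% and 1.24% of all windows. The GC box GGGCGG, also searched on both strands, was in 3 of the 9 windows (of Acly and Srebf1) and in 35.7% of all windows. A match is a description of letters and no match says only that they are not in this window.

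Around the 10 genes, 80 others of the pathway were listed by role, of which 78 are in the table and 73 were tested. Of the 73, 6 were higher in KO and 11 lower (edgeR FDR under 0.05), or 8.22% and 15.1%, beside 9.15% and 8.48% of all genes tested. Their median log2 fold change was -0.09. Lower genes lay among desaturases, elongases, carbon supply and regulators, and 4 of the 6 higher ones in glycerolipid assembly. Leaving out KO 2 leaves 1 KO sample (KO 1+3), so counts from that fit are not used here.

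Among 13 regulators of lipogenic transcription, 3 were lower (23.1%) and none higher, beside 8.48% and 9.15% of all genes tested. Insig1, which holds the SREBP escort protein in the endoplasmic reticulum and is itself a target of SREBPs, had 3.72, 3.82 and 3.38 CPM in KO 1 to 3, against 6.96, 6.34 and 7.61 CPM in WT 1 to 3. The groups did not overlap, and the log2 change was -0.93 (SE 0.15, edgeR FDR 0.000614). Srebf2, the SREBP of cholesterol synthesis, differed by -0.77 (edgeR FDR 0.0033), with a range of -0.94 to -0.62 over the other settings. Rxra, the nuclear receptor partner of LXR and PPAR, had -0.37 (edgeR FDR 0.0436). It did not pass without KO 1 (FDR 0.142) or WT 2 (0.0815), with mitochondrial genes left out (0.0521) or in the DESeq2 Wald test (0.210). The glucose-sensing factor Mlxipl and the liver X receptor genes Nr1h3 and Nr1h2 did not pass, with differences of 0.24, 0.22 and -0.15 (edgeR FDR 0.259, 0.468 and 0.478).

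Among 11 genes of carbon and NADPH supply, 3 were lower (27.3%) and 1 higher (9.09%), beside 8.48% and 9.15% of all genes tested. Slc25a1, the mitochondrial carrier that exports the citrate used by ACLY, had 4.90, 5.43 and 5.02 CPM in KO 1 to 3, against 9.58, 9.05 and 8.46 CPM in WT 1 to 3. It was lower in every KO library, by -0.82 on the log2 scale (SE 0.14, edgeR FDR 0.000913), while Acly did not pass. Slc25a1 had 0.31 to 0.36 counts for each Acly count in KO libraries and 0.672 to 0.68 in WT libraries, a comparison chosen after the values were seen. Pcx, which makes the oxaloacetate that citrate is built from, was 1.99-fold lower in KO (edgeR FDR 0.000202), and Aacs, which activates acetoacetate for lipid synthesis, 2.63-fold lower (edgeR FDR 0.00178). Slc2a4, the insulin-responsive glucose transporter of muscle and fat, was 1.61-fold higher (edgeR FDR 0.00211). The NADPH enzymes Me1 and G6pdx did not pass, with differences of -0.35 and -0.55 (edgeR FDR 0.062 and 0.0823).

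Of 15 tested genes of elongation and desaturation, 5 were lower (33.3%) and 1 higher (6.67%), beside 8.48% and 9.15% of all genes tested. Elovl7 and Elovl1, elongases of longer saturated chains, were 2.39-fold and 1.71-fold lower in KO (edgeR FDR 0.000757 and 0.000718). Elovl5, the elongase of polyunsaturated chains, went the other way, with 17.1, 16.8 and 18.2 CPM in KO 1 to 3, against 11.7, 12.3 and 10.2 CPM in WT 1 to 3 (1.51-fold higher, edgeR FDR 0.00219). The desaturases of polyunsaturated chains, Fads1 and Fads2, differed by -0.67 and -0.97 (edgeR FDR 0.00239 and 0.003). Over the other settings they ranged from -0.73 to -0.53 and from -1.04 to -0.80. Scd3, the neighbour of Scd2, had 2, 0 and 0 counts in KO 1 to 3, against 25, 8 and 11 counts in WT 1 to 3. Per scaled library size that is 34.1-fold lower in KO (exact 95% counting interval 8.89 to 290.1, edgeR FDR 0.00126), and taking 2 counts as 1 read pair, as the counts appear to fall, lowers the near bound to 5.51-fold. All KO counts of Scd3 are in KO 1, so none remains without that library.

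Of 16 tested genes of glycerolipid assembly, 4 were higher in KO (25.0%) and none lower, beside 9.15% and 8.48% of all genes tested. The lipins, which make diacylglycerol from phosphatidic acid, all rose. Lpin2 had 7.78, 8.91 and 8.10 CPM in KO 1 to 3, against 2.97, 2.58 and 2.45 CPM in WT 1 to 3, or 1.63 higher on the log2 scale (SE 0.16, edgeR FDR 1.16e-05). Lpin1, the main lipin of muscle and fat, rose 2.15-fold (edgeR FDR 3.18e-05) and Lpin3 1.59-fold (edgeR FDR 0.0135, but 0.0758 in the DESeq2 Wald test). Pnpla3, a lipid droplet protein induced by SREBF1 in liver, was higher on 67 counts in KO libraries and 9 in WT libraries (log2 change 2.16, edgeR FDR 0.0207). It did not pass without KO 3 (FDR 0.0591) or in the DESeq2 Wald test (FDR 0.0960). Dgat1 and Gpam, the enzymes of the last and first steps of triglyceride synthesis, had differences of 0.32 and 0.19 (edgeR FDR 0.517 and 0.486). None of 9 genes that control acetyl-CoA carboxylase and none of 9 tested genes of mitochondrial fatty acid synthesis was called, with medians of 0.02 and 0.03. At an unadjusted p under 0.05 in edgeR, 3 of the 9 controllers and 0 of the 9 mitochondrial genes passed, beside 30% of all genes tested. The DESeq2 Wald test called 0 of either, beside 11.2% of all genes.

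**Figure D5:**
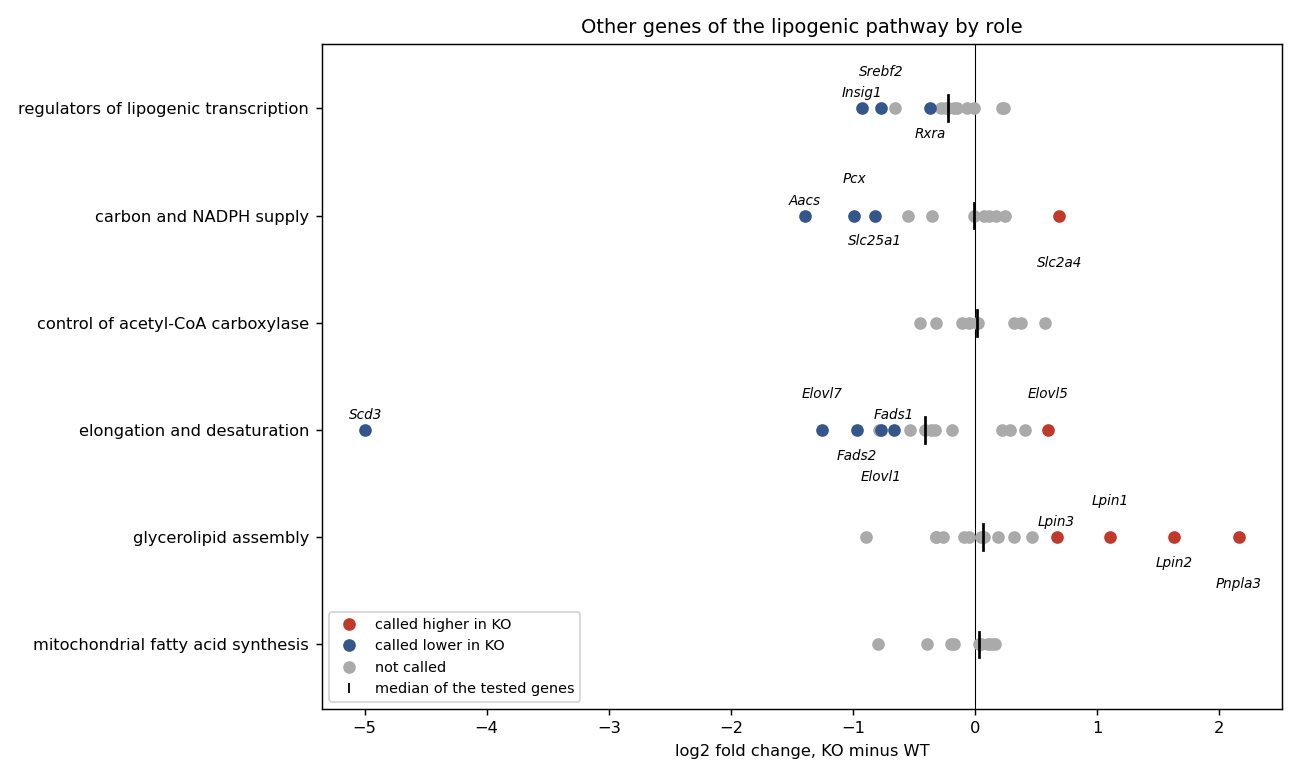
Log2 fold change (KO minus WT, horizontal axis) of the 73 tested pathway genes, 1 row per role, with called genes named and coloured and the median of each row as a black tick. Insig1, Slc25a1, Pcx, Fads1 and Fads2 lie left of 0, the lipins lie right of it, and Scd3 (-5.00) rests on 2 counts in KO.

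Markers of cell types that use or lack this pathway are given for the same libraries. Of all genes tested, 9.15% were higher in KO and 8.48% lower. All 12 Schwann cell and myelin genes were lower in KO, and their summed level was 347 to 355 CPM in KO libraries and 852 to 885 CPM in WT libraries. The myelin genes Mbp, Pmp22 and Prx had log2 fold changes of -1.09, -1.62 and -1.52. Scd2, Fasn and Elovl6 fell with them, and the part of Schwann cells in these decreases was not tested. Fast skeletal muscle genes had 5 of 13 members higher (38.5%) and none lower. Their summed level was 7687 to 8965 CPM in KO libraries and 5109 to 7043 CPM in WT libraries. Among them Myh2 was higher (1.55, edgeR FDR 1.00e-06), while Myh4 and Myh1 did not pass (-0.03 and 0.47, edgeR FDR 0.933 and 0.134). The part of muscle in the increase of Acacb was not tested.

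Of 11 tested white adipocyte genes, 6 were lower and 3 higher in KO, or 54.5% and 27.3%, beside 8.48% and 9.15% of all genes tested. The hormone gene Adipoq was at 1.31 CPM in KO and 4.78 in WT, and the adipsin gene Cfd at 5.52 CPM in KO and 15.2 in WT. Retn, at 0.203 CPM in KO and 0.587 in WT, passed narrowly (edgeR FDR 0.0454) with libraries that overlapped. The list's summed level, 987 to 1065 CPM in KO libraries and 573 to 755 in WT libraries, went the other way. Lpl (611 CPM in KO and 236 in WT) and Fabp4 (319 CPM in KO and 338 in WT), which muscle and vessels also express, make up most of it. The 3 genes called higher were Lpl, Lipe and Pnpla2 (edgeR FDR 2.29e-05, 0.00669 and 3.01e-05), and Fabp4 did not pass (edgeR FDR 0.837). Brown adipocyte genes had 3 of 9 lower and 1 higher, or 33.3% and 11.1%, the latter near the 9.15% of all genes tested. Ucp1 was near the floor, with 0, 0 and 4 counts in KO 1 to 3, against 22, 17 and 14 in WT 1 to 3. Dio2 was at 1.01 CPM in KO and 2.84 in WT, and Cidea did not pass (edgeR FDR 0.276). The summed brown level was 40.2 to 51.0 CPM in KO libraries and 28.0 to 40.1 in WT libraries. Cox7a1 (18.3 CPM in KO and 13.3 in WT) and Cpt1b (20.3 CPM in KO and 10.1 in WT) make up most of it. The part of adipocytes in the changes of Fasn, Scd1 and Thrsp was not tested.

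Defining genes of sebaceous gland were near 0, with at most 4, 2 and 7 counts of Mc5r, Awat1 and Awat2 in a KO library and at most 5, 0 and 5 in a WT library. Of the 7 tested genes of that list 1, Fa2h, was lower (14.3%, beside 8.48% of all genes tested), an enzyme that myelin also uses. The list's summed level was 15.7 to 17.6 CPM in KO libraries and 24.2 to 26.2 in WT libraries. Within that sum, Fa2h was at 4.18 CPM in KO and 12.1 in WT. Hepatocyte genes were low, at 6.0 to 7.1 CPM summed in KO libraries and 11.2 to 12.8 in WT libraries, with 3 of 6 tested genes lower. Of these, Alb and Apoa1 were at 0.816 and 0.116 CPM in KO and 2.27 and 0.402 in WT, with overlapping libraries for Apoa1 (edgeR FDR 0.0499), and Ttr did not pass (edgeR FDR 0.498). Salivary gland genes were higher in 10 of 11, beside 9.15% of all genes tested. Their summed level was 511 to 537 CPM in KO libraries and 40.2 to 43.7 in WT libraries. Bpifa2, Smr3a and Dcpp1 had log2 fold changes of 3.65, 6.70 and 6.49. The part of gland tissue in the changes of the lipogenic genes was not tested.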

How the data were processed

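RNA of the temporomandibular joint was sequenced in 6 libraries. TRIzol extraction and an mRNA isolation kit were used, per the labels' protocols. HISAT2 2.1.0 and StringTie 2.1.5 with build mm39 are named in the submitters' processing notes. No source used here gives the annotation, strand setting or rule for shared reads. The authors deposited raw read counts per gene symbol, 1 column per library, not normalized. Mitochondrially encoded genes took 85.3% to 86.0% of counts in KO and 90.6% to 90.8% in WT.

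Groups come from the sample titles. Library pairs with a median ratio of observed to counting variance under 1.1 were summed, as in earlier work on these data. edgeR 4.0.16 in R 4.3.3 was run with filterByExpr (minimum count 10), TMM and the robust quasi-likelihood fit with group as the term. FDRs are Benjamini-Hochberg over all genes tested, log2 fold changes are KO minus WT, and SE is the absolute change over the square root of F. DESeq2 1.42.0, other scalings and filters, 6 separate libraries, a replicate block and leaving out each library were alternatives. The genes, lists and tests were chosen with earlier results of these data known. Named are the 10 genes, Igf2bp2, called pathway genes (up to 4 of smallest p a role), the first 3 genes of each marker list, and others only to state a value. Fads1, Fads2, Lpl, Lipe, Pnpla2, Fabp4, Cox7a1, Cpt1b, Fa2h, overlapping genes and the joint genes stand outside that rule and were chosen after their values were seen. Elovl3 and Elovl4 are in a pathway and a marker list. In the marker lists, 1 gene is not reported here and was left out of its list's count and sum. Levels per kilobase use the longest protein-coding GENCODE M21 transcript. Intervals on counts cover counting error only.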

Additional observations from a re-analysis of the deposited data

How the results depend on the processing

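Under 15 other settings each of the 10 lipogenic genes kept its direction. Leaving out KO 2 or WT 1 leaves that group with 1 sample, so those fits are not used to call single genes. Their gene counts are part of the ranges below as a description only, and no conclusion is drawn from them. In the other settings all 6 called genes passed. The other 4 passed in none. The count over all genes, 2580, was 1634 with the DESeq2 Wald test, 1058 with a minimum absolute log2 change of 1, and 1149 to 2434 when a library was left out, lowest without KO 2. At an absolute change of at least 1, the lower lipogenic genes were 2 (from 4), and the pathway genes 3 higher and 3 lower (from 6 and 11). Leaving out a library gave 3 to 4 lower and 2 higher lipogenic genes, and 7 to 12 lower and 4 to 7 higher pathway genes, with 7 lower without KO 2. The cause was not tested. With the 6 libraries as separate samples 3452 genes were called, and 2941 with the replicate number as a block, with 2 higher and 4 lower lipogenic genes in both. Deviations of same-numbered libraries from their group means had correlations of -0.11, -0.14 and 0.08. KO 1 and KO 2 were closest to another number, KO 2 to WT 1 at 0.23, the highest of the 9 pairs. Because 2 libraries of each group are near repeats, these correlations cannot tell whether samples of the groups are paired. Of the 17 called pathway genes, Rxra, Lpin3 and Pnpla3 did not pass in 1 or more settings that keep at least 2 samples per group. The others passed in all such settings that tested them (Scd3 was filtered out in 4 of the 15 settings). With n = 2 samples per group, the 95% intervals of Acly, Srebf1 and Dgat2 hold 0 and also differences as large as 0.42, -0.55 and -0.48.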
